A study of Mus musculus with 110 samples.

Results

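Malat1, Neat1, Miat, Snhg11, Meg3, Rian and Mirg are long noncoding RNAs that are expressed in the brain. They were taken by symbol from a table of read counts per gene, as 7 of its 24060 rows, and all 7 had enough counts for every test described here. The 110 mouse libraries hold either RNA recovered on ribosomes (IP), which 1 cell type marks with an HA tag so that they can be captured by antibody (the RiboTag method), or the RNA of the starting material (Input). The 4 conditions are R6/2 with a zinc-finger protein, ZFP (RZ), R6/2 with Delta (RD), NCAR with ZFP (NZ) and NCAR with Delta (ND). R6/2 mice carry the first exon of human huntingtin with an expanded CAG repeat and model Huntington's disease. ZFPs are transcriptional repressors that were used to lower mutant huntingtin, Delta is their control, and both were given by cell-type-specific AAV. The strain field of every library, NCAR included, names R6/2. Of the 4 sets, n_ZFP_n_Rpl and hSyn are labelled neurons, and n_ZFP_a_Rpl and MG are labelled astrocytes. The n_ZFP_n_Rpl set has 4 libraries per condition in each fraction, hSyn has 4 RZ, 3 RD, 4 NZ and 5 ND, n_ZFP_a_Rpl has 4 RZ, 3 RD, 4 NZ and 4 ND, and MG has 4 per condition in IP alone. The labels used here do not give the tissue or the age, spell out NCAR or the set names, state which cells carry the ZFP in each set, or say whether a library is 1 animal or a pool. The p-values below therefore measure the spread between these libraries.

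Long noncoding RNAs are transcribed and often spliced like messenger RNAs but are not known to serve mainly as templates for protein, and many remain in the nucleus. Malat1 lies in nuclear speckles, which store splicing factors, and Neat1 is the RNA scaffold of paraspeckles, nuclear bodies that hold RNA-binding proteins. Miat (also called Gomafu) forms its own nuclear bodies in neurons, and Snhg11 is a host transcript of a small nucleolar RNA. Meg3, Rian and Mirg lie in a row in the imprinted Dlk1-Dio3 region and are expressed from the maternal chromosome, where Rian carries small nucleolar RNAs and Mirg carries microRNAs. A pull-down of ribosomes enriches translated messenger RNA, and the share of untranslated nuclear RNA that it holds describes the pull-down.

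Positions are those of RefSeq on GRCm38.p6, the assembly that corresponds to the mm10 build of the alignments. Malat1 spans chr19:5795690-5802672 and Neat1 chr19:5824708-5845480, with 22 kb between them. Miat spans chr5:112213228-112228948 and Snhg11 chr2:158375713-158386474. Meg3 spans chr12:109540996-109571729, Rian begins 32.2 kb after it and spans chr12:109603945-109661716, and Mirg begins 73.3 kb after Rian and spans chr12:109734981-109749458. All are annotated as lncRNA.

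The last 30 bases before the annotated start of the imprinted row and of Malat1 are shown because the 3 genes of the row are neighbours whose levels are compared below and Malat1 is the member that differed with R6/2 in every set. For Meg3 a second stretch of 30 bases farther from the start is added. Each runs 5′ to 3′ on the gene's strand (RefSeq, GRCm38.p6). Capitals mark TGACGTCA (the cAMP response element) and, just before the first Meg3 start, the letters TATAAA of a promoter's core box, here on both strands with an overlap. These motifs, the promoter box motif CCAAT and the GC box GGGCGG were searched on both strands from 250 bases before to 50 after each start.
Meg3, before the start, chr12:109540966-109540995, plus strand: cTTTATATAAAccccacccagccagcccct
Meg3, farther before the start, chr12:109540928-109540957, plus strand: gcagaatgcgcTGACGTCAaagaccacccc
Rian, before the start, chr12:109603915-109603944, plus strand: aactggaactcttcattttacagctatggc
Mirg, before the start, chr12:109734951-109734980, plus strand: tacacggctctcctctcttctagtgtcaaa
Malat1, before the start, chr19:5802673-5802702, minus strand: caataaataccggcgctccgggctctgcgt
The Meg3 window holds TGACGTCA at -57, TATAAA at -25 on the gene's strand and, overlapping it, at -29 on the other strand, and CCAAT at -100. Of 32851 mouse promoter windows of the same length, 1.79% hold TGACGTCA, 13.62% TATAAA, 37.41% CCAAT and 35.66% GGGCGG. The Mirg window holds CCAAT at -184, and none of the 4 motifs lies in the Rian or Malat1 window or in that of a second annotated Meg3 start, at chr12:109545148-109545447. The Miat window, not printed, holds GGGCGG on the other strand at -224, and that of Snhg11 holds none of the 4. The printed Mirg stretch overlaps a mature microRNA, miR-485-3p, at chr12:109734946-109734967 on the same strand.

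The table also has rows for hairpins and other small RNAs of the imprinted region. Of 55 listed microRNA hairpins placed on chromosome 12, 1 lies in Meg3, 3 in Rian and 10 in Mirg, and 41 lie outside the 3 genes. The mature microRNAs of 2 Rian hairpins are shown, with the seed (bases 2 to 8) in capitals, because the counts of their hairpin rows are set beside Rian below.
miR-1188-5p: uGGUGUGAgguugggccagga
miR-1188-3p: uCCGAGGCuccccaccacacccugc
miR-341-5p: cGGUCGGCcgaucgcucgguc
miR-341-3p: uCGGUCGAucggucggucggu
The 4 seeds differ from each other. A hairpin row counts library fragments that overlap the hairpin, which may come from the host RNA, and is no measure of the mature microRNA.

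Depth and cell type were checked first. Each library had between 26369041 and 72623472 counts assigned to genes, with 34763967 or more in IP and 44176925 or fewer in Input. Levels below are in CPM, counts scaled by library size (TMM), so every value is a share of its own library. Astrocyte markers rose in IP over Input in n_ZFP_a_Rpl (10 of 10 markers, median log2 fold change 1.85), while 9 of 10 fell in n_ZFP_n_Rpl (median -0.83) and 5 of 10 fell in hSyn (median -0.21). Neuron markers rose in all 3 sets with an Input (10 of 10, 10 of 10 and 9 of 10 in n_ZFP_n_Rpl, hSyn and n_ZFP_a_Rpl, medians 0.69, 0.58 and 0.32). The neuron markers thus did not fall in the pull-down labelled astrocytes, where they summed to between 4923 and 6847 CPM, against 6606 to 11087 CPM over the 2 IPs labelled neurons. MG has no Input, and its IP astrocyte marker sum was between 12906 and 37429 CPM, against 1630 to 9355 CPM in the 2 neuron IPs.

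Every member was several-fold lower in IP than in Input, in each of the 3 sets. In n_ZFP_n_Rpl the log2 fold changes of IP over Input lay between -2.31 (Rian) and -3.28 (Meg3), in hSyn between -2.30 (Rian) and -3.13 (Meg3), and in n_ZFP_a_Rpl between -2.60 (Neat1) and -3.66 (Meg3). All 7 members fell by more than 2-fold in each set (edgeR glmTreat with Benjamini-Hochberg adjustment, every adjusted p at most 0.00017). Among all genes tested, 40.7% fell in n_ZFP_n_Rpl, 39.5% in hSyn and 42.8% in n_ZFP_a_Rpl, and 13.6%, 11.2% and 11.4% fell by more than 2-fold. The median log2 change of all genes was 0.02, -0.01 and -0.01 in the 3 sets.

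**Figure D1:**
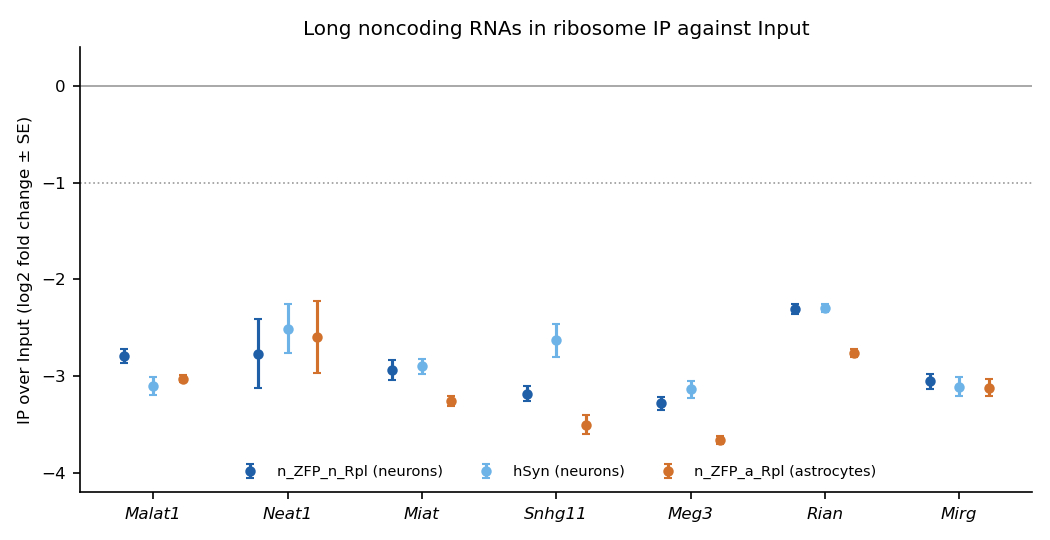
IP over Input of the 7 long noncoding RNAs, as log2 fold change ± SE (vertical axis), by gene (horizontal axis) and set (colour), each over all 4 conditions. All points lie below the dotted line at -1, a 2-fold lower share in IP, and Rian is the least reduced in both neuron sets.

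The speckle RNA Malat1 shows the size of the difference in single libraries. In n_ZFP_a_Rpl ND it had 1102, 1351, 1296 and 1274 CPM in IP, against 9747, 11368, 12175 and 11072 CPM in Input. In n_ZFP_n_Rpl ND it had 1475, 1938, 1672 and 1501 CPM in IP, against 8690, 11410, 13637 and 13060 CPM in Input. The highest IP library was below the lowest Input library in every set and condition. Its log2 fold change was -2.79 ± 0.07 (SE) in n_ZFP_n_Rpl, -3.10 ± 0.09 in hSyn and -3.02 ± 0.04 in n_ZFP_a_Rpl.

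The paraspeckle RNA Neat1 was low in both fractions and uneven between libraries of a group. In n_ZFP_a_Rpl RD it had 2.36, 2.35 and 2.58 CPM in IP, against 13.1, 14.4 and 14.7 CPM in Input, and the groups did not overlap. In n_ZFP_a_Rpl ND it had 1.36, 6.31, 4.10 and 1.07 CPM in IP, against 5.21, 32.7, 31.4 and 6.71 CPM in Input, and the groups overlapped. In fits that did not pair IP with Input, its SE was 0.36 in n_ZFP_n_Rpl, 0.25 in hSyn and 0.37 in n_ZFP_a_Rpl. These were the widest of the 7 members in each set. With each IP paired to the Input of its number, the Neat1 SE was 0.052 in n_ZFP_n_Rpl and 0.055 in n_ZFP_a_Rpl. That of Mirg was then wider, at 0.060 and 0.067. Across members and conditions, IP lay wholly below Input in 27 of 28 pairs of groups in n_ZFP_n_Rpl, 28 of 28 in hSyn and 25 of 28 in n_ZFP_a_Rpl, and the 4 exceptions were all Neat1. The share of all genes whose groups separate in this way was not counted, so how common it is cannot be said.

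Miat and Snhg11 followed the same direction. Miat, of the neuronal nuclear bodies, changed by -2.93 ± 0.10 on the log2 scale in n_ZFP_n_Rpl, -2.90 ± 0.08 in hSyn and -3.26 ± 0.05 in n_ZFP_a_Rpl (SE). In n_ZFP_a_Rpl RD it had 5.34, 7.59 and 6.44 CPM in IP, against 59.1, 79.3 and 73.6 CPM in Input. Snhg11, the small nucleolar RNA host, changed by -3.18 ± 0.08, -2.63 ± 0.17 and -3.50 ± 0.10 in the same order of sets. In n_ZFP_a_Rpl RD it had 36.1, 43.5 and 53.0 CPM in IP, against 496, 563 and 742 CPM in Input.

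In the imprinted row, Meg3 was the most reduced of the 7 members in all 3 sets, and Rian the least in both neuron sets. Meg3 changed by -3.28 ± 0.07 in n_ZFP_n_Rpl, -3.13 ± 0.09 in hSyn and -3.66 ± 0.04 in n_ZFP_a_Rpl (log2, SE). In n_ZFP_a_Rpl RD it had 83.9, 96.6 and 96.5 CPM in IP, against 1328, 1357 and 1449 CPM in Input. Rian changed by -2.31 ± 0.05, -2.30 ± 0.05 and -2.76 ± 0.04, and Mirg by -3.05 ± 0.08, -3.11 ± 0.10 and -3.12 ± 0.09, in the same order of sets. Mirg was near 1 CPM in IP, with 1.08, 1.46 and 1.21 CPM in n_ZFP_a_Rpl RD IP, against 9.60, 13.0 and 12.8 CPM in Input. As a share of the Input mean, over the 12 pairs of groups, the IP mean was 6.70% to 16.9% for Meg3, 11.9% to 24.6% for Rian, 9.76% to 15.5% for Mirg, 9.75% to 15.9% for Malat1, 13.4% to 24.4% for Neat1, 9.14% to 20.8% for Miat and 7.36% to 23.4% for Snhg11.

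Related RNAs were read alongside. Of the other long noncoding RNAs listed, 29 of 31 fell in n_ZFP_n_Rpl (median -1.20), 29 of 32 in hSyn (median -1.33) and 27 of 31 in n_ZFP_a_Rpl (median -1.49). Firre and Ftx, both X-chromosomal noncoding RNAs, were among the most reduced, at -2.93 and -3.19 in n_ZFP_n_Rpl, -2.90 and -2.84 in hSyn, and -3.25 and -3.59 in n_ZFP_a_Rpl. Peg13, an imprinted noncoding RNA, rose by 0.59 in n_ZFP_n_Rpl and 0.63 in hSyn, and Pantr1 rose by 0.83 in n_ZFP_a_Rpl. The small RNA rows of the Dlk1-Dio3 region fell in 42 of 42, 30 of 30 and 49 of 49 cases in n_ZFP_n_Rpl, hSyn and n_ZFP_a_Rpl (medians -2.91, -2.52 and -2.90). The 6 protein-coding genes of the region had medians of 0.27, 0.36 and 0.26 in the same order, with 1, 1 and 2 of them lower. Genes for paraspeckle and speckle proteins had medians of 0.14, 0.18 and 0.05 over 16 genes, with 4 lower in each set, Sfpq among them at -0.87, -0.63 and -0.98.

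Markers of microglia, of vessels and of the oligodendrocyte lineage also had negative medians in IP over Input in each set, unlike the neuron markers in the astrocyte pull-down given above. Microglia markers had median log2 fold changes of -5.15 in n_ZFP_n_Rpl, -5.12 in hSyn and -5.97 in n_ZFP_a_Rpl, endothelial and mural markers -3.91, -3.44 and -4.26, oligodendrocyte markers -1.69, -1.77 and -0.93, and oligodendrocyte precursor markers -2.32, -2.19 and -1.67. All 10 microglia markers fell in each set. The part that RNA of other cell types has in the members' Input levels was not tested.

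The size of the reduction was compared between the neuron pull-down of n_ZFP_n_Rpl and the astrocyte pull-down of n_ZFP_a_Rpl. On the log2 scale IP over Input was called as less negative in n_ZFP_n_Rpl than in n_ZFP_a_Rpl for 5 of 7 members. The difference was 0.44 ± 0.07 for Rian (adjusted p = 6.08e-08), 0.37 ± 0.08 for Meg3 (adjusted p = 5.14e-05), 0.31 ± 0.12 for Snhg11 (adjusted p = 0.0181), 0.31 ± 0.12 for Miat (adjusted p = 0.0235) and 0.22 ± 0.08 for Malat1 (adjusted p = 0.0170), with SE and edgeR's quasi-likelihood test. Among all genes, 67.2% differed in this comparison, so a call here is common. Mirg differed by 0.05 ± 0.12 (adjusted p = 0.701) and Neat1 by -0.18 ± 0.51 (adjusted p = 0.773). With each IP paired to the Input of its number, which the libraries' shared deviations support in both sets, the Neat1 difference was -0.19 ± 0.08 and passed (adjusted p = 0.0378), and the other 6 calls did not change.

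Mean levels of Miat, Snhg11, Meg3 and Mirg in IP were set side by side across the sets. Over the 4 conditions, mean Miat levels in IP were 17.5 to 25.1 CPM in n_ZFP_n_Rpl, 6.46 to 8.77 CPM in n_ZFP_a_Rpl, 3.35 to 4.81 CPM in hSyn and 2.73 to 4.87 CPM in MG, and the ranges of hSyn and MG overlapped. Snhg11 means in IP were 67.8 to 82.3 CPM in n_ZFP_n_Rpl, 44.2 to 55.5 CPM in n_ZFP_a_Rpl, 26.1 to 52.6 CPM in hSyn and 20.2 to 43.9 CPM in MG, with only n_ZFP_n_Rpl apart from the rest. Meg3 means in IP were 136 to 173 CPM in n_ZFP_n_Rpl, 92.3 to 139 CPM in n_ZFP_a_Rpl, 92.7 to 149 CPM in hSyn and 70.9 to 123 CPM in MG, and these ranges overlapped from each set to the next. Mirg means in IP were 0.575 to 1.46 CPM over all 16 groups. Input levels also differed between sets, and MG has no Input. Mean Miat levels in Input were 124.6 to 164.6 CPM in n_ZFP_n_Rpl, 63.1 to 71.4 CPM in n_ZFP_a_Rpl and 23.1 to 36.7 CPM in hSyn. Snhg11 and Meg3 means in Input were also lowest in hSyn, and overlapped between the n_ZFP sets. Mirg means in Input overlapped across all sets with an Input. The part of the Input differences in the IP levels was not tested. All these values are descriptions across sets, and no test of the levels between sets was made.

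R6/2 against NCAR, both with Delta, was tested within each set and fraction. Malat1 was the one member lower in RD than in ND in all 7 combinations of set and fraction. In MG IP it had 462, 492, 835 and 452 CPM in RD, against 1576, 1913, 2089 and 1660 CPM in ND. In hSyn IP it had 743, 654 and 822 CPM in RD, against 1339, 1930, 1744, 1821 and 1857 CPM in ND. In every combination the highest RD library was below the lowest ND library. The share of all genes whose RD and ND libraries separate in this way was not counted, here or below.

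The log2 fold change of Malat1, RD over ND, was -1.68 ± 0.19 in MG IP (adjusted p = 8.24e-06), -1.28 ± 0.20 in hSyn IP (adjusted p = 0.000136), -0.98 ± 0.08 in n_ZFP_a_Rpl IP (adjusted p = 8.86e-08) and -0.84 ± 0.11 in n_ZFP_n_Rpl IP (adjusted p = 1.37e-05). In Input it was -0.88 ± 0.14 in hSyn (adjusted p = 7.92e-05), -1.06 ± 0.07 in n_ZFP_a_Rpl (adjusted p = 1.03e-09) and -0.87 ± 0.15 in n_ZFP_n_Rpl (adjusted p = 0.000284), by edgeR's quasi-likelihood test. Input in n_ZFP_n_Rpl held 5034, 7729, 6884 and 6255 CPM in RD, against 8690, 11410, 13637 and 13060 CPM in ND. Many genes differed between RD and ND: 33.5% in MG IP, 51% in hSyn IP, 45.3% in n_ZFP_a_Rpl IP and 51.4% in n_ZFP_n_Rpl IP, and 44.1%, 49.1% and 49.8% in the Inputs of hSyn, n_ZFP_a_Rpl and n_ZFP_n_Rpl. Between 1.57% and 9.51% of the genes tested had a lower log2 fold change than Malat1, depending on the combination.

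**Figure D2:**
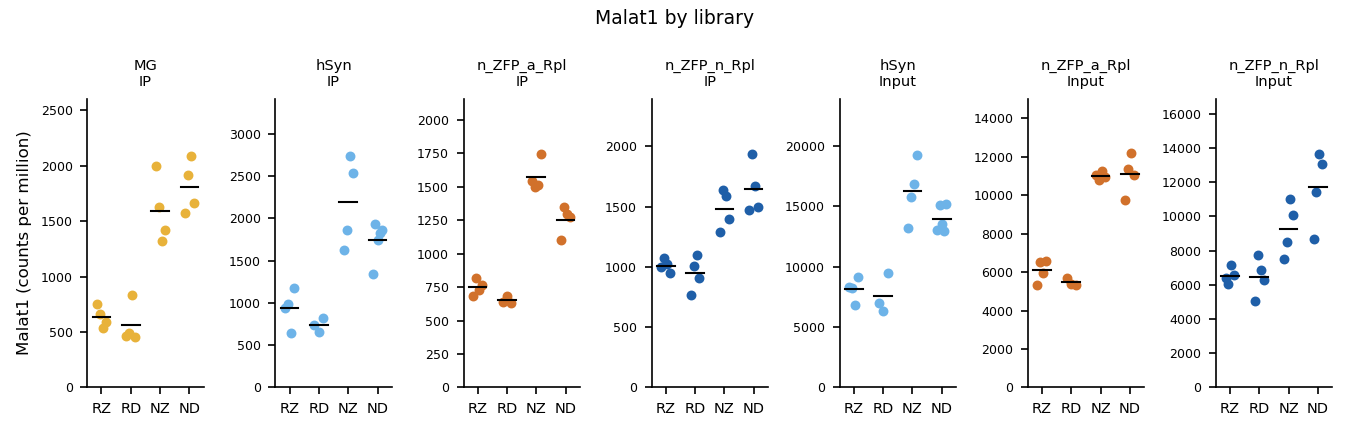
Malat1 in CPM (vertical axis, from 0, a scale of its own in each panel) by condition, with 1 point per library and a bar at the group mean, for the 4 IPs and 3 Inputs. RD lies below ND in all 7 panels, and RZ lies near RD.

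Besides Malat1, the RD against ND calls among the members differed by set. In MG IP 5 of 7 members were called, where 33.5% of all genes were. There Snhg11 had 18.4, 19.6, 26.0 and 16.8 CPM in RD, against 32.6, 65.9, 40.5 and 36.5 CPM in ND, a log2 fold change of -1.11 ± 0.31 (adjusted p = 0.0121) with no overlap. Meg3 had 52.8, 67.6, 94.1 and 69.3 CPM in RD, against 114, 143, 144 and 89.7 CPM in ND, a log2 fold change of -0.77 ± 0.19 (adjusted p = 0.00626), and the groups overlapped. Miat fell by 0.66 (SE 0.18, adjusted p = 0.00912) on the log2 scale, to 2.64, 2.44, 3.73 and 2.11 CPM in RD, against 4.07, 4.67, 4.97 and 3.79 CPM in ND. Rian fell by 0.35 (SE 0.12, adjusted p = 0.0425), a call that was lost in 7 of 16 fits with 1 library left out, whose values lay between -0.43 and -0.29. The libraries whose omission ended it were ND 1, 2 and 3, NZ 5 and RD 1, 2 and 4.

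In the neuron IPs, Rian was lower in RD, and Meg3 and Mirg were not called. Of all genes, 51% were called in hSyn IP and 51.4% in n_ZFP_n_Rpl IP. Rian had 73.5, 71.5 and 72.6 CPM in RD, against 88.4, 94.1, 75.4, 94.7 and 86.6 CPM in ND of hSyn IP, a log2 fold change of -0.33 ± 0.08 (adjusted p = 0.00206). In n_ZFP_n_Rpl IP the change was -0.30 ± 0.09 (adjusted p = 0.0144), and without RD replicate 3 it was -0.24 (adjusted p = 0.0505). There Meg3 passed without ND replicate 2 (adjusted p = 0.0472) and Mirg without ND replicate 3 (adjusted p = 0.0112), both higher in RD. In n_ZFP_a_Rpl IP Rian was at 0.01 ± 0.08 (adjusted p = 0.923), and Malat1 was the single member called, where 45.3% of all genes were.

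In Input, Mirg and Meg3 rose in RD in n_ZFP_n_Rpl, and Mirg and Rian in n_ZFP_a_Rpl. Of all genes, 49.8% were called in n_ZFP_n_Rpl Input and 49.1% in n_ZFP_a_Rpl Input. Mirg had 9.79, 8.94, 9.50 and 10.5 CPM in RD, against 5.62, 6.63, 7.31 and 7.17 CPM in ND of n_ZFP_n_Rpl Input, with no overlap and a log2 fold change of 0.52 ± 0.09 (adjusted p = 0.000244). In the IP of that set Mirg was at 0.44 ± 0.22 (adjusted p = 0.104) and Meg3 at 0.21 ± 0.16 (adjusted p = 0.291), of the same sign as in Input. In n_ZFP_a_Rpl Input Mirg rose by 0.45 ± 0.10 (adjusted p = 0.00102) and Rian by 0.34 ± 0.08 (adjusted p = 0.00303). Meg3 rose in n_ZFP_n_Rpl Input, with 1546, 1456, 1710 and 1694 CPM in RD, against 1158, 1319, 1214 and 1369 CPM in ND, by 0.33 ± 0.08 (adjusted p = 0.00216). In hSyn Input the 3 genes had log2 fold changes of 0.23 (Meg3), 0.14 (Rian) and 0.18 (Mirg), with adjusted p between 0.121 and 0.238. Miat, not called in any Input, passed with 1 library left out in each of them, higher in RD (without ND replicate 0 in hSyn, RD replicate 1 in n_ZFP_a_Rpl or ND replicate 1 in n_ZFP_n_Rpl, adjusted p 0.00558, 0.0182 and 0.0207), and Rian passed in n_ZFP_n_Rpl Input without RD replicate 3 (adjusted p = 0.0469).

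**Figure D3:**
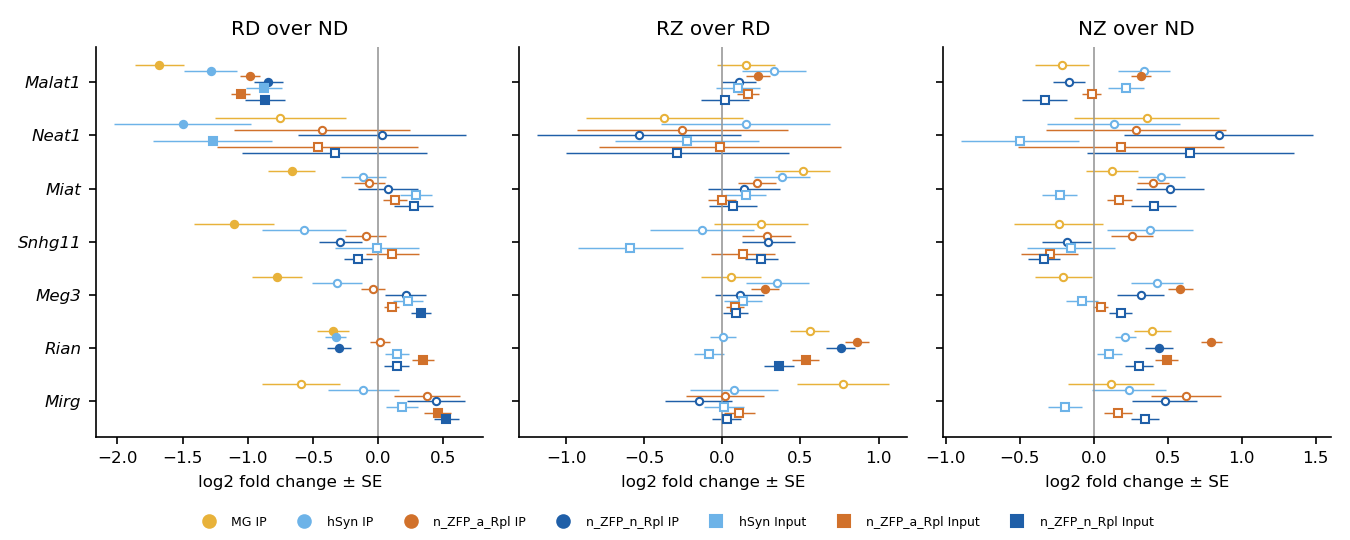
Log2 fold change ± SE (horizontal axes) of each member (rows) for RD over ND, RZ over RD and NZ over ND, by set (colour) and fraction (circles for IP, squares for Input). Filled symbols pass an adjusted p of 0.05: Malat1 is filled in all 7 combinations for RD over ND, and Rian is filled 4 times for RZ over RD and 3 times for NZ over ND.

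The small RNA rows of the region did not all follow their hosts. In n_ZFP_a_Rpl Input 4 of 46 tested rows rose and 4 fell in RD against ND, with a median of 0.03, where 49.1% of all genes were called. Mir1188, whose hairpin lies in Rian, fell by 0.77 (SE 0.15, adjusted p = 0.000302), and Mir341, also in Rian, fell by 0.48 (SE 0.18, adjusted p = 0.0318) on the log2 scale, both named after their values were seen. Their mean levels over all Input libraries were low, at 2.10 CPM for Mir1188 and 2.05 CPM for Mir341. AF357359, a small RNA row inside the Rian span, rose by 0.35 ± 0.11 (adjusted p = 0.0135). Since these rows overlap Rian, reads may be split between them and their host.

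Neat1 was called in hSyn alone, where 51% of all genes were called in IP and 44.1% in Input. It had 7.78, 7.98 and 8.64 CPM in RD, against 29.1, 12.7, 28.7, 20.5 and 7.08 CPM in ND of hSyn Input, so the lowest ND library was below all 3 RD libraries. The log2 fold change was -1.27 ± 0.46 in hSyn Input (adjusted p = 0.0376) and -1.50 ± 0.53 in hSyn IP (adjusted p = 0.0276). These calls ended in 6 and 5 of 16 fits with 1 library left out, in Input without ND 0, 3 or 4 or any RD library (log2 -1.48 to -1.07, adjusted p up to 0.102) and in IP without ND 2 or 3 or any RD library (log2 -1.72 to -1.26, adjusted p up to 0.0873).

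Cell type markers moved with R6/2 as well. The summed striatal projection neuron markers were 2103 to 2891 CPM in RD, against 7574 to 8217 CPM in ND of MG IP, and 1481 to 1630 CPM in RD, against 4642 to 7793 CPM in ND of n_ZFP_n_Rpl Input. The summed astrocyte markers were 12997 to 18758 CPM in RD, against 22113 to 28104 CPM in ND of MG IP, and 3620 to 3853 CPM in RD, against 6643 to 7705 CPM in ND of n_ZFP_n_Rpl Input. In such bulk samples fewer cells of a type and less RNA per cell cannot be told apart, and the part of either in the members' changes was not tested.

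Among the related genes, 6 other long noncoding RNAs rose and 6 fell of 28 tested in n_ZFP_n_Rpl IP (median 0.05), and 2 rose and 7 fell of 29 in MG IP (median -0.01). Dlx6os1, transcribed across from Dlx6 in forebrain interneurons and their precursors, fell by 0.79 in MG IP, 0.49 in hSyn IP, 0.64 in n_ZFP_a_Rpl IP and 0.80 in n_ZFP_n_Rpl IP. Mir22hg rose by 0.44 in MG IP, 1.05 in hSyn IP and 0.98 in n_ZFP_n_Rpl IP. Of 16 genes for paraspeckle and speckle proteins, 6 rose and 1 fell in MG IP, 7 rose and 4 fell in hSyn IP, 8 rose and 3 fell in n_ZFP_a_Rpl IP and 6 rose and 3 fell in n_ZFP_n_Rpl IP. Among all genes, 33.5% were called in MG IP, 51% in hSyn IP, 45.3% in n_ZFP_a_Rpl IP and 51.4% in n_ZFP_n_Rpl IP. Calls in either list are thus common. The splicing factor gene Srsf1 rose by 0.51 in hSyn IP and 0.36 in n_ZFP_n_Rpl IP, and Celf1 fell by 0.50 and 0.35.

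Whether the R6/2 change differed between the ribosome fraction and the Input was tested as RD minus ND in IP less RD minus ND in Input. By edgeR without pairing, Rian was the single member called, in n_ZFP_n_Rpl and in no other set. The difference was -0.49 ± 0.14 (adjusted p = 0.0435), where 3.68% of all genes were called. In that set Rian had 84.9, 75.2, 67.6 and 82.7 CPM in RD, against 95.1, 99.3, 96.8 and 80.2 CPM in ND of the IP, and 506, 469, 385 and 510 CPM in RD, against 415, 445, 429 and 392 CPM in ND of the Input. Without pairing, single libraries decided this call, which held in 3 of 32 fits with 1 library left out (without IP NZ 3, Input ND 2 or Input NZ 3). The values lay from -0.52 to -0.31 and the adjusted p from 0.0464 to 0.288. In the fit with each IP paired to its Input the difference was -0.49 ± 0.04 (adjusted p = 1.31e-07) with 3877 genes called, against 595 without pairing. Over the other alternatives that ended the call, the adjusted p lay between 0.0575 (no filter) and 0.111 (RLE factors), and it was 0.0647 by DESeq2.

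In n_ZFP_a_Rpl the Rian difference was -0.30 ± 0.12 (adjusted p = 0.257), where 1.86% of all genes were called. With pairing it was -0.29 ± 0.06 and passed (adjusted p = 0.00283), with 933 genes called against 303. In hSyn it was -0.42 ± 0.12 (adjusted p = 0.116), where 1.01% of all genes were called, and it passed without Input NZ replicate 1 (adjusted p = 0.0423). DESeq2 called it in hSyn (-0.44, adjusted p = 0.0308), as did edgeR without the filter (-0.52, adjusted p = 0.0391). Without pairing, the set in which Rian was called thus changed with the tool and the filter. With pairing, Rian was called in both n_ZFP sets. Malat1 differed by -0.35 ± 0.24 in hSyn, 0.11 ± 0.11 in n_ZFP_a_Rpl and -0.02 ± 0.20 in n_ZFP_n_Rpl (adjusted p 0.727, 0.746 and 0.966). The difference of the RD against ND change between the IPs of n_ZFP_n_Rpl and n_ZFP_a_Rpl was called for 0 of 7 members by edgeR, against 18.2% of all genes, with Rian at -0.29 ± 0.14 (adjusted p = 0.138, unadjusted p = 0.0392, the one member with an unadjusted p under 0.05). Without n_ZFP_n_Rpl ND replicate 2, Meg3 passed (adjusted p = 0.0391).

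ZFP against Delta was tested in R6/2 and in NCAR. Rian, the snoRNA-bearing middle gene of the imprinted row, was higher with ZFP in both n_ZFP sets, in R6/2 and in NCAR. In n_ZFP_a_Rpl IP it had 121, 119, 119.7 and 114 CPM in RZ, against 58.7, 68.1 and 71.8 CPM in RD, and 111, 101, 116 and 119 CPM in NZ, against 58.6, 63.3, 61.3 and 73.5 CPM in ND. Each ZFP library was above each Delta library, in both genotypes. How many of all genes separate in this way was not counted, here or in n_ZFP_n_Rpl. The log2 fold change was 0.86 ± 0.08 for RZ over RD (adjusted p = 1.01e-06), where 33.8% of all genes were called, and 0.80 ± 0.07 for NZ over ND (adjusted p = 6.26e-06), where 2.07% were. Of all genes tested, 96.4% had a lower log2 fold change than Rian for RZ over RD and 99.3% for NZ over ND.

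The neuron pull-down of n_ZFP_n_Rpl gave the same direction. Rian had 111, 144, 136 and 128 CPM in RZ, against 84.9, 75.2, 67.6 and 82.7 CPM in RD, and 113, 123, 138 and 135 CPM in NZ, against 95.1, 99.3, 96.8 and 80.2 CPM in ND, with no overlap in either genotype. The log2 fold change was 0.76 ± 0.09 for RZ over RD (adjusted p = 9.57e-05, 17.4% of genes called) and 0.44 ± 0.09 for NZ over ND (adjusted p = 0.0131, 7.36% called). In Input, n_ZFP_a_Rpl had 824, 847, 800 and 734 CPM in RZ, against 476, 595 and 599 CPM in RD, and 599.9, 539.7, 628 and 649.9 CPM in NZ, against 443, 419.5, 391 and 457 CPM in ND. These were changes of 0.53 ± 0.08 (adjusted p = 0.000367, 16.1% called) and 0.49 ± 0.08 (adjusted p = 0.00492, 0.957% called).

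In n_ZFP_n_Rpl Input Rian changed by 0.36 ± 0.09 for RZ over RD (adjusted p = 0.0478, 3.32% called), a call that ended in 15 of 16 fits with 1 library left out, all but that without RZ 1 (log2 0.28 to 0.44, adjusted p up to 0.178). For NZ over ND it was at 0.31 ± 0.10 (adjusted p = 0.0902), where 3.03% of genes and 0 members were called by edgeR, against 6 members at an unadjusted p under 0.05 and 3 by DESeq2. The difference of the RZ against RD change between the IPs of n_ZFP_n_Rpl and n_ZFP_a_Rpl was called for 0 of 7 members by edgeR, with 0 of 7 at an unadjusted p under 0.05, against 11.1% of all genes called. For Rian it was -0.10 ± 0.14 (adjusted p = 0.715).

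**Figure D4:**
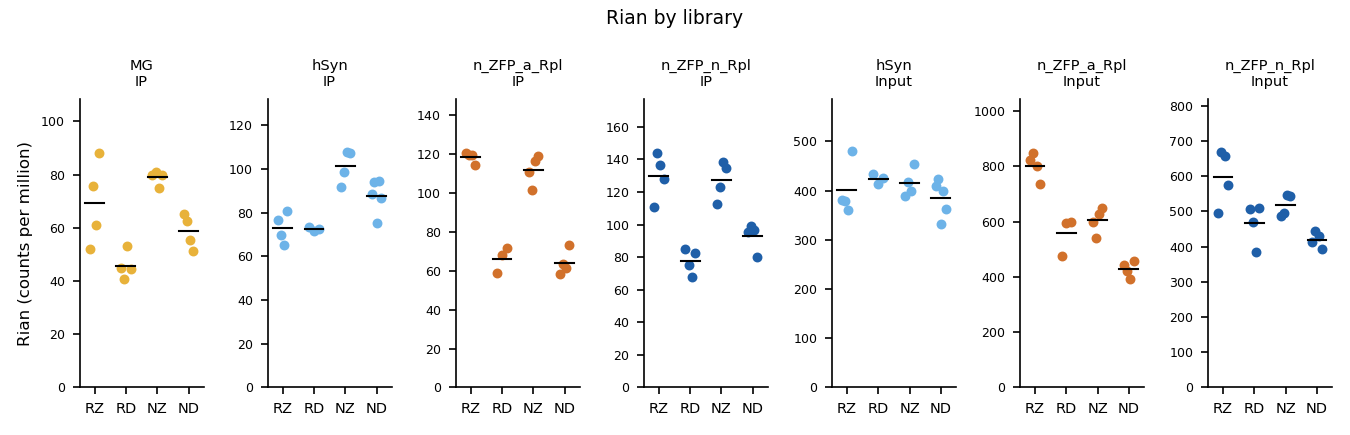
Rian in CPM (vertical axis, from 0, a scale of its own in each panel) by condition, with 1 point per library and a bar at the group mean, for the 4 IPs and 3 Inputs. In both n_ZFP IPs every RZ point lies above every RD point and every NZ point above every ND point, while in hSyn IP the RZ points surround the RD points.

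In the other sets Rian was not called with ZFP by edgeR, and DESeq2 called it in MG IP for RZ over RD (log2 0.57, adjusted p = 0.00563) and for NZ over ND (log2 0.39, adjusted p = 0.0314). In MG IP it had 52.0, 75.8, 61.1 and 88.0 CPM in RZ, against 44.8, 40.8, 53.0 and 44.4 CPM in RD (log2 0.56 ± 0.12, adjusted p = 0.120), and 79.7, 81.0, 75.0 and 79.9 CPM in NZ, against 65.3, 62.7, 55.5 and 51.4 CPM in ND (log2 0.40 ± 0.12, adjusted p = 0.0608). In MG IP 0.0782% of genes were called for RZ over RD and 7.05% for NZ over ND, with 0 members each by edgeR, against 3 and 1 members at an unadjusted p under 0.05 and 1 member, Rian, each by DESeq2. The lack of a call rested on 1 library: without RZ replicate 1 the RZ over RD change of Rian had an adjusted p of 0.00299, that of Mirg 0.0349, and 2043 genes in place of 12 were called. The NZ over ND change of Rian passed without RZ replicate 1 or 4, which enter that fit through its spread (lowest adjusted p 0.0225). In hSyn IP Rian had 76.6, 69.9, 65.4 and 80.6 CPM in RZ, against 73.5, 71.5 and 72.6 CPM in RD, a log2 fold change of 0.00 ± 0.08, and 0.21 ± 0.07 for NZ over ND, neither of them called. Few genes were called with ZFP in hSyn: 0.0391% and 0.0261% in IP for RZ over RD and NZ over ND, and 0% and 0.00622% in Input, with 0 members by edgeR or DESeq2 in each. At an unadjusted p under 0.05 there were 1 and 3 members in IP and 0 in Input.

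Of the other members, Meg3 and Malat1 were called with ZFP by edgeR, both in n_ZFP_a_Rpl IP. In n_ZFP_a_Rpl IP Meg3 had 109.7, 113, 106 and 110.2 CPM in RZ, against 83.9, 96.6 and 96.5 CPM in RD (log2 0.27 ± 0.09, adjusted p = 0.0311), and 139, 137, 124 and 158 CPM in NZ, against 87.6, 104, 78.6 and 101 CPM in ND (log2 0.58 ± 0.08, adjusted p = 0.00136). Malat1 rose there by 0.23 ± 0.07 for RZ over RD (adjusted p = 0.0269) and 0.32 ± 0.07 for NZ over ND (adjusted p = 0.0209). The RZ over RD calls of Meg3 and Malat1 each ended in 4 of 15 fits with 1 library left out (adjusted p up to 0.136 for Meg3, without RD 1 or RZ 1, 2 or 4, and up to 0.105 for Malat1, without RD 1 or 3 or RZ 2 or 4). The NZ over ND call of Malat1 ended in 2 of 15, without ND 1 or NZ 4 (adjusted p up to 0.0867). RZ libraries had 684, 821, 728 and 764 CPM of Malat1, against 639, 682 and 630 CPM in RD, and ND libraries had 1102 to 1351 CPM. Neat1, Miat, Snhg11 and Mirg were not called with ZFP in any set by edgeR with all libraries in the fit. DESeq2 called Miat for NZ over ND in n_ZFP_a_Rpl IP (adjusted p = 0.0161), and Snhg11 (adjusted p = 0.0249) and Mirg (adjusted p = 0.0247) for NZ over ND in n_ZFP_n_Rpl Input. With 1 library left out, Miat passed in n_ZFP_a_Rpl IP for RZ over RD (without RD replicate 2, adjusted p = 0.0477) and NZ over ND (without ND replicate 4, adjusted p = 0.0142), and for NZ over ND in n_ZFP_n_Rpl IP and Input (without ND replicate 1, adjusted p 0.0494 and 0.0249). Snhg11 passed for NZ over ND in n_ZFP_n_Rpl Input without NZ replicate 3 (adjusted p = 0.0450), and Malat1 for RZ over RD in n_ZFP_a_Rpl Input without RZ replicate 1 (adjusted p = 0.0262).

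The rows around Rian were followed in the same contrasts. AF357359, the small RNA row inside the Rian span, rose for RZ over RD by 0.59 ± 0.16 in n_ZFP_a_Rpl IP (adjusted p = 0.00877), 0.71 ± 0.20 in n_ZFP_n_Rpl IP (adjusted p = 0.0202) and 0.41 ± 0.11 in n_ZFP_a_Rpl Input (adjusted p = 0.0147), and for NZ over ND by 0.61 ± 0.14 in n_ZFP_a_Rpl IP (adjusted p = 0.0388). Mir1188 rose for RZ over RD by 0.98 ± 0.36 in n_ZFP_a_Rpl IP (adjusted p = 0.0463) and 0.49 ± 0.15 in n_ZFP_a_Rpl Input (adjusted p = 0.0300). Mir341 was at 0.28 ± 0.18 in that Input (adjusted p = 0.346). Both rows are low even in Input, with means of 2.10 CPM (Mir1188) and 2.05 CPM (Mir341) over all Input libraries. This is below the 5 CPM asked of genes named from a list. Over the region's small RNA rows, 2 of 7 tested rose for RZ over RD in n_ZFP_a_Rpl IP, 1 of 7 in n_ZFP_n_Rpl IP and 2 of 46 in n_ZFP_a_Rpl Input, and none fell. Among all genes 33.8%, 17.4% and 16.1% were called there, in the same order. Begain was the one protein-coding gene of the region called in n_ZFP_a_Rpl IP, at 0.52 ± 0.07 (adjusted p = 4.72e-05).

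Other values moved with Rian. The striatal projection neuron markers summed to 5451 to 6224 CPM in RZ, against 2033 to 2727 CPM in RD of n_ZFP_a_Rpl IP, and to 4125 to 6557 CPM in RZ, against 2663 to 3568 CPM in RD of n_ZFP_n_Rpl IP. In NCAR they summed to 5782 to 7941 CPM in NZ, against 7473 to 11392 CPM in ND of n_ZFP_n_Rpl IP, where Rian was higher in NZ, and to 7460 to 9572 CPM in NZ, against 7332 to 8405 CPM in ND of n_ZFP_a_Rpl IP. In n_ZFP_a_Rpl IP the astrocyte markers summed to 12134 to 13253 CPM in RZ, against 15298 to 16582 CPM in RD, and the neuron markers to 6163 to 6521 CPM in RZ, against 4923 to 5295 CPM in RD. In n_ZFP_a_Rpl Input the neuron markers summed to 4731 to 4946 CPM in RZ, against 4127 to 4439.97 CPM in RD, and the astrocyte markers to 5522 to 5898 CPM in NZ, against 6104 to 6380.2 CPM in ND. In n_ZFP_n_Rpl IP the astrocyte markers summed to 4289 to 5528 CPM in NZ, against 3177 to 4271 CPM in ND. In these astrocyte and neuron sums the groups did not overlap, and neither did they in the far lower microglia and vessel marker sums in n_ZFP_a_Rpl IP, lower in RZ than in RD. Of the 13 genes near Rian that varied with it in Input, AF357359 among them, described next, 4, 2, 2 and 1 were called for RZ over RD in the 4 n_ZFP combinations where Rian was (n_ZFP_a_Rpl IP, n_ZFP_n_Rpl IP, n_ZFP_a_Rpl Input and n_ZFP_n_Rpl Input), where 33.8%, 17.4%, 16.1% and 3.32% of all genes were. Of the 13, 7, 2, 7 and 1 moved in the direction that their correlation with Rian gives. The part of these in the Rian change was not tested.

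Within groups, libraries differed in Neat1 far more than in Malat1 or Rian. The highest library of a group had between 1.10 and 15.6 times the Neat1 of the lowest, with a median of 4.26 over the 28 groups, against medians of 1.32 for Malat1 and 1.23 for Rian. In n_ZFP_n_Rpl NZ Neat1 had 13.3, 6.50, 0.849 and 5.24 CPM in IP, against 89.3, 34.7, 8.83 and 34.4 CPM in Input for the same replicate numbers. The library numbered 3 was thus lowest and that numbered 1 highest in both fractions.

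Genes that varied with a member within groups were ranked by the size of Pearson's r of log2 CPM after subtracting each group's mean, over 47 Input and 63 IP libraries and 10827 candidate genes of at least 5 CPM. This ranking was chosen after the levels were seen and is a description, and the points share their sets. For Neat1, 14 of the 20 top genes in Input lay within 5 Mb of it and 15 on chromosome 19, and in IP 17 of 20 lay within 5 Mb and 20 on chromosome 19, where 1.51% of candidates lie in the window. For Rian 13 of 20 in Input and 8 of 20 in IP lay within 5 Mb (17 and 11 on chromosome 12), where 0.582% of candidates lie. Snhg11 had 5 of 20 in Input and 4 of 20 in IP within 5 Mb, where 0.665% of candidates lie. Malat1, Miat, Meg3 and Mirg had 0 or 1 of 20 in either fraction.

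The genes at the top of these rankings had both signs. With Neat1 in Input they were Fau (r = -0.791), Fam89b (r = -0.759), Slc3a2 (r = -0.729), Snhg1 (r = -0.715) and Bbs1 (r = 0.701), all on chromosome 19. In IP, Fau (r = -0.802) and Fam89b (r = -0.794) were again the highest. With Rian in Input they were 2810029C07Rik (r = 0.737), Hhipl1 (r = -0.697), Wars (r = 0.664) and Mta1 (r = -0.657), all on chromosome 12. Malat1, 22 kb from Neat1, correlated with it within groups at r = 0.228 in Input and 0.344 in IP, and Meg3 correlated with Rian at 0.0378 in Input and 0.267 in IP.

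**Figure D5:**
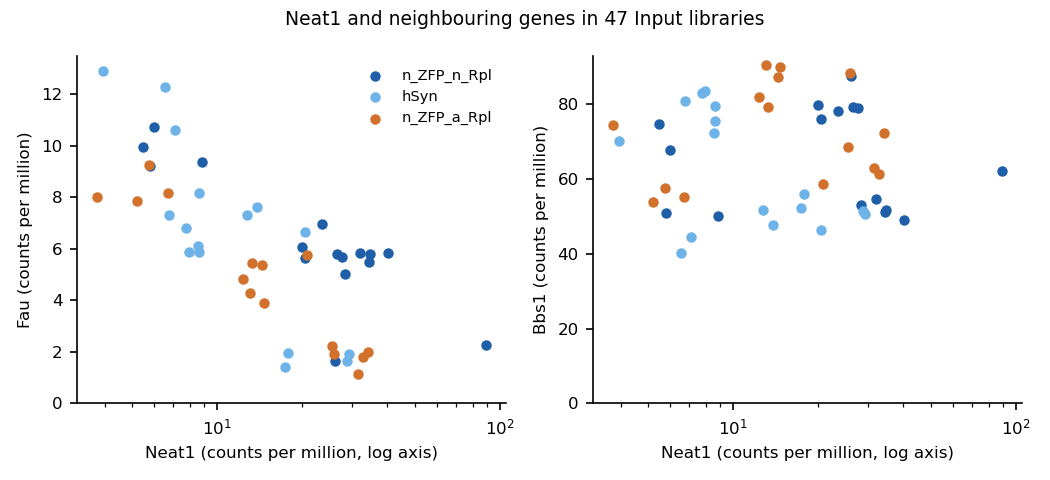
Neat1 in CPM (horizontal axes, log scale) against Fau (left) and Bbs1 (right) in CPM, with 1 point per Input library (47) and colour for the set. The library with the most Neat1 (89.3 CPM) has 2.25 CPM of Fau, that with the least Fau (1.12 CPM) has 31.4 CPM of Neat1, and the points are not adjusted for condition or set, whereas the correlations in the text are taken within groups.

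Over the 28 group means of all sets, fractions and conditions, the 3 most similar genes to each member were found among 11427 genes by Pearson's r of log2 CPM. Meg3 was most like A930011O12Rik (r = 0.996), A330023F24Rik (r = 0.993) and Wsb1 (r = 0.993), and Wsb1 was also nearest to Rian (r = 0.984) and Mirg (r = 0.988). Snhg11 was most like Kcnq1ot1 (r = 0.985) and Firre (r = 0.985), and Miat most like 4732471J01Rik (r = 0.984) and Usp49 (r = 0.983). Malat1 was most like Podxl (r = 0.978) and Nckap1l (r = 0.975), and Neat1 most like Ubn2 (r = 0.964) and Stx3 (r = 0.955). The step between IP and Input is shared by all these means. Within the 12 Input means the members of the imprinted row correlated at r = 0.629 (Meg3 with Rian), 0.468 (Meg3 with Mirg) and 0.695 (Rian with Mirg), and Malat1 with Meg3 at r = -0.757.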

How the data were processed

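The deposited table holds raw read counts per gene for 110 mouse libraries, which the authors made with STAR and HTSeq on mm10, per the submitters' processing notes. Neither the tools' versions nor the gene annotation and the use of strand in counting are stated, so reads of overlapping or antisense genes cannot be told apart. Of 24060 rows, 4 whose symbol repeats another row's were dropped, and no per-sample column went unused. Among 5995 pairs of libraries, none was a copy of another.

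The counts were tested with edgeR 4.0.16 (R 4.3.3): TMM factors, filterByExpr (minimum count 10, minimum total count 15), robust quasi-likelihood fits and F tests, and Benjamini-Hochberg adjustment over all genes tested, with calls at an adjusted p of 0.05. Each fraction of a set was fitted over its 4 conditions, IP against Input over both fractions of a set, and differences between sets over both n_ZFP sets. For IP against Input, glmTreat also asked for more than 2-fold. The SE is the log2 fold change divided by the square root of F. Levels are in CPM with TMM over all libraries, which had 26369041 to 72623472 counts each. DESeq2 1.42.0 and the other alternatives are described in the closing section. The scripts were tested on simulated data.

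Replicate numbers pair IP with Input where their deviations from the group means correlate in every pair. These correlations were 0.476 to 0.759 in 15 n_ZFP_a_Rpl pairs, 0.565 to 0.807 in 16 n_ZFP_n_Rpl pairs and -0.28 to 0.81 in 14 hSyn pairs. In hSyn 11 of the 14 lay between 0.548 and 0.807, and ND 2, 3 and 4 were at -0.0175, -0.275 and -0.0996. As not all of its pairs correlated, hSyn was taken as unpaired, as were numbers across conditions.

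The members, gene lists and tests were chosen with earlier results of these data known. The genes named from a list are at most 2 a direction in each comparison, the largest changes past the threshold with a mean of at least 5 CPM. For likeness they are the 3 genes with the highest r over the 28 group means. Genes singled out after their values were seen are marked so. Human transgene reads were not analysed here.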

Additional observations from a re-analysis of the deposited data

Results flagged for a closer look

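In groups of 4 or 5 libraries, a library was singled out where it stood far from the others for the group's range (Dixon's test at the 95% level). This marked 9 of 168 groups, 5.36%, and chance alone marks about 1 in 20. Of the 9 libraries, 8 were high and 1 was low, and no member had more than 2.

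Malat1 was at 835 CPM in MG IP RD replicate 3, where the other libraries had a median of 462 CPM. Neat1 was low, at 5.44 CPM, in n_ZFP_n_Rpl Input RD replicate 1, where the others had a median of 26.5 CPM. Miat was at 4.05 CPM in hSyn IP ND replicate 4 (median of the others 3.37 CPM) and at 160.05 CPM in n_ZFP_n_Rpl Input RD replicate 2 (149 CPM). Snhg11 was at 594 CPM in n_ZFP_a_Rpl Input NZ replicate 3 (390.4 CPM) and at 657 CPM in n_ZFP_n_Rpl Input NZ replicate 3 (517 CPM), both of them NCAR libraries with ZFP. In the imprinted row, Meg3 was at 220.2 CPM in n_ZFP_n_Rpl IP NZ replicate 2 (154 CPM), Rian at 482 CPM in hSyn Input RZ replicate 4 (379 CPM) and Mirg at 1.42 CPM in MG IP NZ replicate 2 (0.813 CPM).

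Differences between groups were tested directly. IP over Input was less reduced in the neuron pull-down of n_ZFP_n_Rpl than in the astrocyte pull-down of n_ZFP_a_Rpl by 0.22 for Malat1, 0.31 for Miat, 0.31 for Snhg11, 0.37 for Meg3 and 0.44 for Rian on the log2 scale. In that comparison 67.2% of all genes were called. The RD minus ND change of Rian in n_ZFP_n_Rpl was more negative in IP than in Input, by -0.49 on the log2 scale (adjusted p = 0.0435 by edgeR without pairing). This call ended in 29 of 32 fits with 1 library left out, and under DESeq2, RLE factors and no filter. It held in the fit with each IP paired to its Input.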

How the results depend on the processing

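Each of the 30 comparisons was refitted with DESeq2 in place of edgeR, with RLE in place of TMM factors, without the filter on low counts, with a replicate block, and with each library left out in turn, and no called value of a member changed its direction. Of 210 member values, 202 stayed on their side of the threshold under DESeq2 (1 lost its call and 7 gained one), 209 under RLE factors (1 lost), 206 without the filter (3 lost and 1 gained) and 201 with the replicate block (4 lost and 5 gained). With 1 library left out, 4837 of 4928 stayed, 73 lost and 18 gained a call. Among all 5768 recomputed values, 164 that were not called changed sign and stayed uncalled. The IP against Input calls, 7 of 7 in each set, were kept under every setting run. The cause of these changes was not tested.

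The calls of members changed in 12 comparisons under another setting with all libraries, and in 8 of them the count moved by more than 1.5 times. For the difference of RD minus ND between IP and Input, it was 1 in hSyn under DESeq2, without the filter and with the replicate block, in place of 0; 1 in n_ZFP_a_Rpl with the block, in place of 0; and 0 in n_ZFP_n_Rpl under DESeq2, RLE factors and no filter, in place of 1. For ZFP in MG IP, DESeq2 called 1 member for RZ over RD and 1 for NZ over ND, in place of 0. In hSyn Input, 1 member was called for RD over ND without the filter, in place of 2. In n_ZFP_n_Rpl Input, 0 were called for RZ over RD without the filter and with the block, in place of 1, and DESeq2 called 3 for NZ over ND, in place of 0. Moves of up to 1.5 times came with the block, to 4 in place of 5 for RD over ND in MG IP, 2 in place of 3 in hSyn IP, 3 in place of 2 in hSyn Input and 6 in place of 5 for IP over Input between the n_ZFP sets, and with DESeq2, to 4 in place of 3 for NZ over ND in n_ZFP_a_Rpl IP.

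The replicate numbers pair IP with Input throughout both n_ZFP sets and in 11 of 14 pairs of hSyn. Between conditions the block is only a number. In the IP and Input pairs of hSyn it took the Rian difference of RD minus ND between IP and Input to -0.47 (adjusted p = 0.0352). That fit used 14 pairs and left out libraries without a partner of the same number. Its pairs ND 2, 3 and 4 did not correlate (r = -0.0175, -0.275 and -0.0996), and ND enters this difference. The value is therefore not that of a true pairing. Between conditions it took Neat1 for RD over ND in hSyn to an adjusted p of 0.0698 in IP and 0.0780 in Input, Miat and Meg3 for RD over ND in hSyn Input to 0.00831 and 0.0164, Rian for RD over ND in MG IP to 0.0881, and Rian for RZ over RD in n_ZFP_n_Rpl Input to 0.0933. In the IP and Input pairs of the n_ZFP sets, the block changed no member call other than those given beside their results.

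Counts over all genes moved more. For RD minus ND between IP and Input, hSyn had 165 calls, against 270 under DESeq2, 106 with RLE factors, 70 without the filter and 582 with the block; n_ZFP_a_Rpl had 303, against 476 under DESeq2 and 933 with the block; n_ZFP_n_Rpl had 595, against 373 without the filter and 3877 with the block. DESeq2 called more genes with ZFP: for RZ over RD 356 in place of 12 in MG IP, 25 in place of 6 in hSyn IP, 5 in place of 0 in hSyn Input and 879 in place of 525 in n_ZFP_n_Rpl Input, and for NZ over ND 2219 in place of 1081 in MG IP, 10 in place of 4 in hSyn IP, 873 in place of 316 in n_ZFP_a_Rpl IP, 1748 in place of 1113 in n_ZFP_n_Rpl IP, 4 in place of 1 in hSyn Input, 336 in place of 151 in n_ZFP_a_Rpl Input and 1101 in place of 479 in n_ZFP_n_Rpl Input. The block gave 6 for RZ over RD and 3 for NZ over ND in MG IP, 1 for RZ over RD in hSyn IP and 287 for NZ over ND in n_ZFP_n_Rpl Input.

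With 1 library left out, the count of members called lay at 0 to 1 for RD minus ND between IP and Input in hSyn, 0 to 1 for RD minus ND between IP and Input in n_ZFP_n_Rpl, 0 to 2 for RZ over RD in MG IP, 0 to 1 for NZ over ND in MG IP, 1 to 4 for RZ over RD in n_ZFP_a_Rpl IP, 1 to 3 for RD over ND in n_ZFP_n_Rpl IP, 1 to 2 for NZ over ND in n_ZFP_n_Rpl IP, 1 to 2 for RD over ND in hSyn Input, 1 to 2 for RZ over RD in n_ZFP_a_Rpl Input, 0 to 1 for RZ over RD in n_ZFP_n_Rpl Input, 0 to 1 for NZ over ND in n_ZFP_n_Rpl Input and 0 to 1 for the difference of RD over ND between the IPs of n_ZFP_n_Rpl and n_ZFP_a_Rpl. The count over all genes lay at 43 to 180 for RD minus ND between IP and Input in hSyn, 179 to 352 for RD minus ND between IP and Input in n_ZFP_a_Rpl, 348 to 787 for RD minus ND between IP and Input in n_ZFP_n_Rpl, 5 to 2043 for RZ over RD in MG IP, 19 to 2069 for NZ over ND in MG IP, 0 to 14 for RZ over RD in hSyn IP, 151 to 641 for NZ over ND in n_ZFP_a_Rpl IP. It lay at 524 to 1313 for NZ over ND in n_ZFP_n_Rpl IP, 0 to 1 for RZ over RD in hSyn Input, 1 to 2 for NZ over ND in hSyn Input, 1677 to 2573 for RZ over RD in n_ZFP_a_Rpl Input, 77 to 151 for NZ over ND in n_ZFP_a_Rpl Input, 216 to 666 for RZ over RD in n_ZFP_n_Rpl Input, 155 to 1270 for NZ over ND in n_ZFP_n_Rpl Input. At this depth the group means of Mirg in IP were 0.575 to 1.46 CPM.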

Other observations

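Snhg11, like Neat1 and Rian, varied within groups with genes near it. In Input the genes with the highest correlations were Uqcc1 (r = 0.709), Eif6 (r = -0.693) and Phf20 (r = -0.638), all within 5 Mb on chromosome 2, and Uqcc1 was also among the top genes in IP (r = 0.617). Malat1 varied within groups of IP libraries with Meg3 (r = 0.788), which lies on another chromosome, and in Input the same pair had r = 0.213. Libraries of a group share a set and a fraction, and these values are descriptions.

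Of the 14 genes near Neat1 that varied with it in Input, 8 were called for RD over ND in hSyn IP and 8 in hSyn Input, where 51% and 44.1% of all genes were called. In each of the 2 fractions, 10 of the 14 moved in the direction that their correlation with Neat1 gives. In n_ZFP_n_Rpl 8 were called in IP and 8 in Input, where 51.4% and 49.8% of all genes were, with 7 and 9 in that direction. In MG IP, n_ZFP_a_Rpl IP and n_ZFP_a_Rpl Input, 11, 11 and 9 of the 14 moved in that direction, though Neat1 was called in hSyn alone. The 14 were picked by their correlation with Neat1 in these same Input libraries.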
